A study of Mus musculus with 6 samples.

Results

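A set of 10 genes that encode transcription factors of the erythroid and megakaryocyte lineages was examined in mouse bone marrow cells with and without active Notch1. They are Gata1, Gata2, Zfpm1, Klf1, Gfi1b, Nfe2, Tal1, Lyl1, Lmo2 and Ldb1, chosen by symbol, and all probe sets annotated to these symbols were taken, 12 of 45037 probe sets other than controls. All 10 genes were measured, among 18193 genes in all, and no filter on low values was applied. Of the 10, 3 fell in N1IC cells, namely Lmo2 by 1.07, Tal1 by 0.85 and Gata2 by 0.69 on the log2 scale, and none rose. Lyl1, the closest relative of Tal1, and Ldb1, the binding partner of Lmo2, stood at log2 fold changes of -0.02 and -0.10 and did not pass the test.

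The N1IC group held 3 samples from female mice that carry Mx1-cre+ and a lox-stop-lox N1-IC allele, and the WT group held 3 samples from Mx1-cre+ mice, 2 male and 1 female. N1-IC is the intracellular, active part of the receptor Notch1, silent here until Cre removes the stop. Mx1-cre is induced by interferon and is active in many cell types, not in blood stem cells alone. Mice of both groups were injected with polyIC from the age of 21 days, 3 times at a dose of 20 mcg/g. Cells were taken at 5 weeks of age, 2 weeks after polyIC. The treatment text of the labels names Ncstn flox alleles instead, and the groups here follow the genotype labels. The cells were LSK cells (without lineage markers, with cKit and Sca1), a sorted fraction that holds blood stem cells and multipotent progenitors, with 1 Affymetrix array per sample. The labels do not say whether a sample is 1 mouse or a pool, so p-values measure the spread between these samples.

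In blood cells, TAL1 (also called SCL) or its relative LYL1 binds DNA at E-boxes as a pair with an E protein, and LMO2 and LDB1 bridge that pair to GATA1 or GATA2 bound close by. GATA2 is the main GATA factor of stem cells and early progenitors and of mast cells, while GATA1 replaces it as cells become erythroid or megakaryocytic, acting with the cofactor FOG1, the product of Zfpm1. KLF1 drives red cell genes, GFI1B represses genes in both lineages, and NFE2 serves platelet formation.

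Median intensity lay between 89.0 and 90.8 on the N1IC arrays and between 89.0 and 92.4 on the WT arrays, and Pearson's r over all probe sets was between 0.990 and 0.992 between N1IC arrays, against between 0.985 and 0.989 between WT arrays. WT replicate 1 had the lowest value of the WT arrays for 36.7% of all genes, for 23 of 30 measured erythroid genes and for all 10 measured neutrophil and monocyte genes. Of the genes of the gate, Ly6a, which encodes Sca1, was not analysed here, and Kit stood at 11.57, 11.51 and 11.45 in N1IC, against 11.94, 11.58 and 11.76 in WT (log2 intensity) and did not pass the test, although the groups did not overlap, while the progenitor and stem cell surface markers Flt3, Cd34 and Slamf1, which the gate does not use, fell, with log2 fold changes of -3.08, -0.62 and -2.65. Cd48 and Ptprc, which the gate does not use either, had log2 fold changes of -0.06 and 0.18 and did not pass the test. The summed intensity of the 10 T cell progenitor markers, 10 of which rose, ran from 36354 to 42482 in N1IC and from 1407 to 2741 in WT. That of the 6 B cell progenitor markers, 5 of which fell, ran from 3420 to 3942 in N1IC and from 15841 to 24977 in WT. The T cell list includes Notch3, Dtx1 and Hes1, genes of the Notch pathway itself. Its other genes, Cd3e, Cd3g, Cd3d, Ptcra, Il2ra, Bcl11b and Gata3, rose too. Their log2 fold changes ran from 2.67 for Gata3 to 6.82 for Il2ra. What the rise of this list reflects was not tested. Of 10 neutrophil and monocyte markers 4 fell, with sums from 29217 to 44891 in N1IC and from 53787 to 102551 in WT, and of 7 macrophage markers 2 rose, with sums from 1285 to 2935 in N1IC and from 1332 to 2823 in WT. In these bulk samples fewer cells of a type and less RNA per cell cannot be told apart, and the part of such shifts in the results below was not tested.

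Values are log2 intensities from here on, log2 fold changes are N1IC over WT, and adjusted p is from limma with Benjamini-Hochberg adjustment over all genes at a threshold of 0.05. At that threshold 3 of the 10 genes were lower and 0 were higher, while 8.31% of all 18193 genes were lower and 3.47% were higher. All 10 lay among the brighter 60% of genes, of which 11.7% were lower. At an unadjusted p of 0.05, 4 of the 10 were lower and 0 were higher. The median log2 fold change of the 10 was -0.36, beside -0.01 over all genes, with 9 below 0 and 1 above. With every probe set tested on its own, 4 of the 12 probe sets were lower and 0 were higher, at 4.76% lower over all probe sets. In the plot of values by array, the N1IC arrays lay wholly below the WT arrays for Lmo2, Tal1, Gata2 and Nfe2, as they did for 19.7% of all genes, and the groups overlapped for the other 6.

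**Figure D1:**
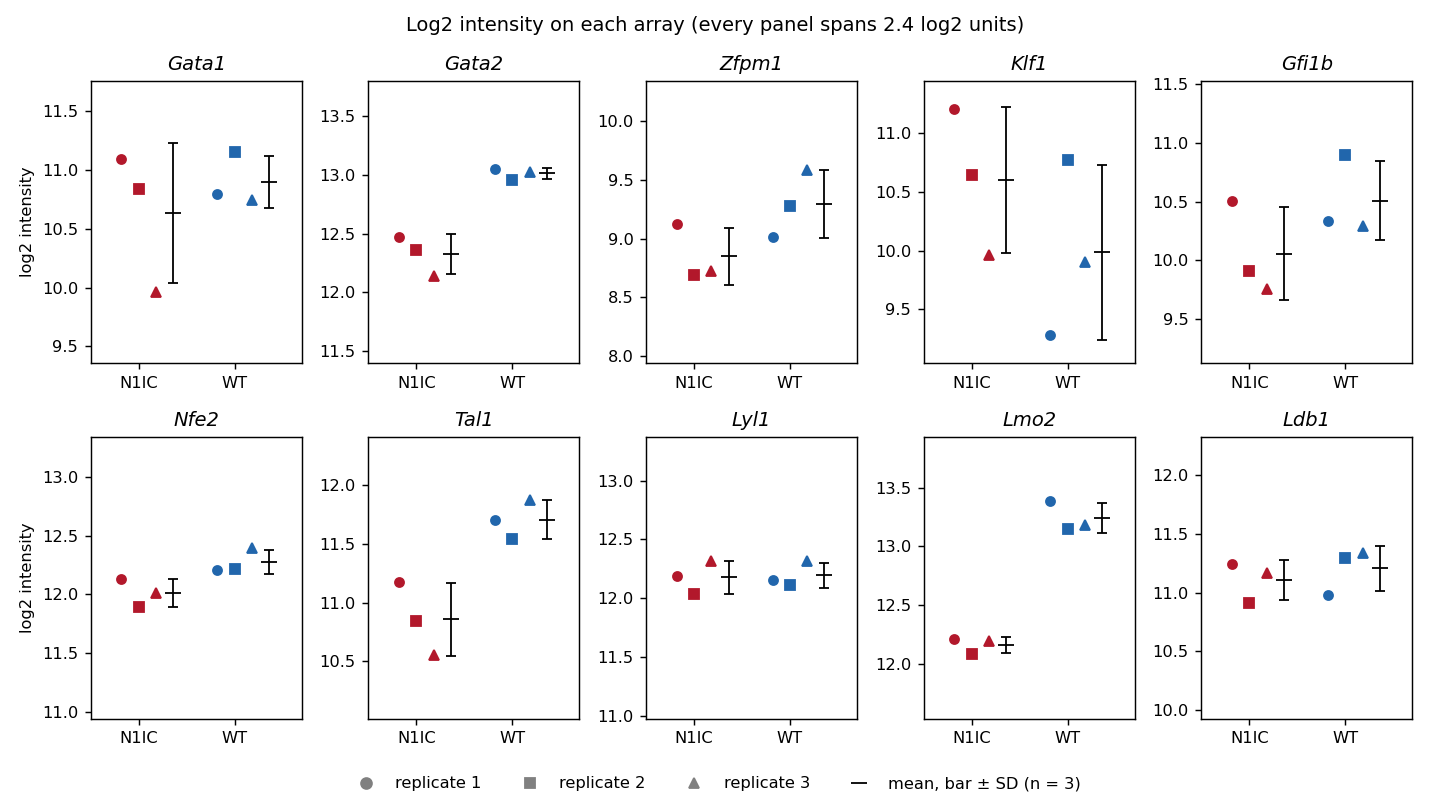
Log2 intensity (vertical axis) of the 10 genes on the 3 N1IC and 3 WT arrays, 1 point per array, with the mean and SD (n = 3) beside each group; every panel spans the same height. Lmo2, Tal1 and Gata2 lie lower in N1IC without overlap, Nfe2 is separated by a small gap, and Klf1 and Gata1 spread widely within a group.

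Of the factors that form the SCL complex, Lmo2 and Tal1 fell, while Lyl1 and Ldb1 did not pass the test. Lmo2, a LIM-domain protein with no DNA binding of its own that holds the complex together, stood at 12.21, 12.09 and 12.20 in N1IC, against 13.38, 13.15 and 13.18 in WT. Every N1IC array lay below every WT array by more than the spread within either group. The mean was 12.16 ± 0.07 in N1IC against 13.24 ± 0.13 in WT (SD, n = 3), 2.10-fold lower, with a log2 fold change of -1.07 ± 0.09 (SE) and an adjusted p of 0.00234 by limma. Its call held in all 16 other fits with 1 probe set per gene, with log2 fold changes between -1.12 and -0.99. Adjusted over all probe sets it was lost in the fits that add sex or keep only females, at -0.99 with adjusted p of 0.0609 and 0.0599 by limma.

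Tal1, the basic helix-loop-helix factor SCL, stood at 11.17, 10.85 and 10.56 in N1IC, against 11.71, 11.54 and 11.87 in WT. The groups did not overlap, and N1IC replicate 1 came closest to WT. The mean was 10.86 ± 0.31 in N1IC against 11.71 ± 0.16 in WT (SD, n = 3), 1.80-fold lower, with a log2 fold change of -0.85 ± 0.18 (SE) and an adjusted p of 0.0328 by limma. This call lay near the threshold: it was lost when WT replicate 1, WT replicate 2, WT replicate 3, N1IC replicate 2 or N1IC replicate 3 was left out, at an adjusted p of between 0.0600 and 0.103 by limma, and log2 fold changes between -0.93 and -0.70 in those fits. It was also lost in the fits that add sex or keep only females, where the log2 fold change was -0.68, with adjusted p of 0.269 and 0.302 by limma.

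Lyl1, which can stand in for TAL1 in the same complex, had nearly equal values, 12.19, 12.03 and 12.31 in N1IC and 12.15, 12.11 and 12.32 in WT. Its log2 fold change was -0.02 with a 95% interval from -0.28 to 0.24 and an adjusted p of 0.949 by limma. Ldb1, the dimerising adaptor that also loops enhancers to promoters, stood at 11.24, 10.92 and 11.16 in N1IC, against 10.98, 11.29 and 11.34 in WT. The groups overlapped, and the log2 fold change was -0.10 with a 95% interval from -0.43 to 0.24. The intervals of Lyl1 and Ldb1 do not reach the log2 fold changes of Tal1 or Lmo2. These have errors of their own, and the 95% interval of Tal1, from -1.28 to -0.42, overlaps that of Ldb1.

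The difference between related genes was tested on its own for 6 pairs, named after their values were seen. The log2 fold change of Tal1 minus that of Lyl1 was -0.83 ± 0.23 (SE, n = 3), and that of Lmo2 minus that of Ldb1 was -0.97 ± 0.19. In both pairs the arrays of the groups did not overlap, and the two-sided exact permutation p was 0.1, the smallest that 3 arrays against 3 allow (adjusted p = 0.15 over the 6 pairs by exact permutation). For Lmo2 minus Tal1 the difference was -0.23 ± 0.21, with overlapping arrays and an exact permutation p of 0.3.

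Promoter sequence was available for 8 of the 10 genes, with 12 annotated starts, and those of Tal1 and Gata2, the called genes among them, are printed with those of Lyl1, the relative of Tal1 that did not pass, and Klf1, the only gene with a higher mean. Each runs from 250 bases before to 50 bases after the start, 5′ to 3′ on the strand of the gene, from RefSeq on GRCm38.p6. Capitals mark matches on either strand to the GATA words (AGATAA or else AGATAG or else TGATAA or else TGATAG), to the E-box words CAGATG or else CAGCTG, and to the word TGGGAA, the core of the site of the Notch partner RBPJ. No match of one kind overlaps another. The Tal1 starts lie at chr4:115056176-115056475 and chr4:115057561-115057860, the Gata2 starts at chr6:88193641-88193940 and chr6:88198414-88198713, and those of Lyl1 and Klf1 at chr8:84701207-84701506 and chr8:84901732-84902031, all on the plus strand.
Tal1 upstream start: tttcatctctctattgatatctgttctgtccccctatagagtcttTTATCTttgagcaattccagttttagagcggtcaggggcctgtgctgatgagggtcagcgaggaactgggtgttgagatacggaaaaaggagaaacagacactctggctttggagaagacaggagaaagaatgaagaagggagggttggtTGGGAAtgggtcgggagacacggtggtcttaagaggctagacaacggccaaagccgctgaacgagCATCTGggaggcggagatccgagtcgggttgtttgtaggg
Tal1 downstream start: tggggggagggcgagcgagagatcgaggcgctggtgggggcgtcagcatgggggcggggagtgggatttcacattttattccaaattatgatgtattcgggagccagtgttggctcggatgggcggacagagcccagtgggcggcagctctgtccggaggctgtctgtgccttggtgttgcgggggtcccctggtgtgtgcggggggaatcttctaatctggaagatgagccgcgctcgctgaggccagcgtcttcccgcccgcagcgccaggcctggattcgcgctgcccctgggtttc
Gata2 upstream start: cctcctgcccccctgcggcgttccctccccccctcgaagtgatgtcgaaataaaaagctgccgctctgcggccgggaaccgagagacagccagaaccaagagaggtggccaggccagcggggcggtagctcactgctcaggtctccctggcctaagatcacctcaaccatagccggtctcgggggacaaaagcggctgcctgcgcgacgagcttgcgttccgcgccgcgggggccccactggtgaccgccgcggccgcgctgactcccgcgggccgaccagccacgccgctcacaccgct
Gata2 downstream start: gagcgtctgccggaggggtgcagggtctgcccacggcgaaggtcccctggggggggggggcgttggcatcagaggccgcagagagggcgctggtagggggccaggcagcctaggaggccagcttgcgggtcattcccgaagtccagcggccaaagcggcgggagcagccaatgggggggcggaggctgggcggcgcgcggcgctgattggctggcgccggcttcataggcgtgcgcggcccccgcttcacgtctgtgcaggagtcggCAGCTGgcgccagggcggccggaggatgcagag
Lyl1: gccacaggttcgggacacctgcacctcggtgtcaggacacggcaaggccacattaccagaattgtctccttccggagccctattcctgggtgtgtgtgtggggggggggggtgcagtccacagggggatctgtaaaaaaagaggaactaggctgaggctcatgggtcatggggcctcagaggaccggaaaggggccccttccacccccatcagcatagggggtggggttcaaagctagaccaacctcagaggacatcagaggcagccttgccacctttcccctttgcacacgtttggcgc
Klf1: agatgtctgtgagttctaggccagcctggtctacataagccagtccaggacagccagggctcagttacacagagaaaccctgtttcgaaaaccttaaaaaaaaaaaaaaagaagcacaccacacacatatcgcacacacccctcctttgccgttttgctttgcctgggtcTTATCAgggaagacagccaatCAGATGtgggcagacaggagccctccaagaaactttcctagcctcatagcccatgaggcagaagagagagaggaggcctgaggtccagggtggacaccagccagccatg

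The upstream Tal1 window held 1 match of each kind, and the downstream window none. The upstream Gata2 window held none, and the downstream one held 1 E-box word. The Lyl1 window held none, and the Klf1 window held 1 GATA word followed by 1 E-box word. Among the windows not printed, that of Zfpm1, which did not pass, held 2 RBPJ words. The third Ldb1 window held 2 GATA words and 1 RBPJ word, although Ldb1 did not pass, and that of Gfi1b held 1 GATA word. Those of Gata1 and of the other Ldb1 starts held none. Over all 32851 such windows, all of the same length, 29.8% held a GATA word, 30.6% an E-box word and 25.6% the RBPJ core. A match describes the letters in these windows and was not tested as a site.

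Of the GATA factors, Gata2 fell and Gata1 did not pass the test. Gata2 was measured by 2 probe sets that moved together. The brighter stood at 12.47, 12.36 and 12.14 in N1IC, against 13.05, 12.96 and 13.03 in WT, so every N1IC array lay below every WT array. Its mean was 12.33 ± 0.17 in N1IC against 13.01 ± 0.05 in WT (SD, n = 3), 1.61-fold lower (adjusted p = 0.0124 by limma). The dimmer stood at 11.69, 11.68 and 11.37 in N1IC, against 12.47, 12.33 and 12.36 in WT, 1.75-fold lower, with an adjusted p of 0.0144 by limma over all probe sets. Over all probe sets, the brighter lost its call without WT replicate 2, WT replicate 3 or N1IC replicate 2 (adjusted p = 0.0536, 0.0644 and 0.0550 by limma). The dimmer kept its call when any one array was left out. With 1 probe set per gene, the call of Gata2 held when any one array was left out, at an adjusted p of between 0.0233 and 0.0486 by limma. It was lost in fits that add sex or keep only females, where the log2 fold change was -0.63, beside -0.69, with adjusted p of 0.134 and 0.168 by limma. In both fits WT replicate 2, from the single female of that group, decides the WT level.

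Gata1, an X-linked gene, stood at 11.10, 10.84 and 9.96 in N1IC, against 10.79, 11.16 and 10.75 in WT. The groups overlapped: N1IC replicate 3 was the lowest of the 6 arrays, and the other N1IC arrays lay within the WT range. The log2 fold change was -0.27 with a 95% interval from -1.02 to 0.48 (adjusted p = 0.647 by limma), and without N1IC replicate 3 it was 0.07. The highest WT value was that of the female sample, as it also was for Klf1 and Gfi1b, which are not X-linked. N1IC replicate 3, the lowest array, was from a female too, and a link of Gata1 with sex was not tested. The log2 fold change of Gata2 minus that of Gata1 was -0.42 ± 0.29 (SE, n = 3), with overlapping arrays and an exact permutation p of 0.2. Gata3, the GATA factor of T cells and no member of the group, stood at 11.28, 11.33 and 11.30 in N1IC, against 8.59, 8.60 and 8.70 in WT, 6.39-fold higher, so that Gata2 and Gata3 moved in opposite directions, each without overlap (exact permutation p = 0.1 for the difference).

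Zfpm1, which encodes the GATA cofactor FOG1, stood at 9.12, 8.69 and 8.72 in N1IC, against 9.02, 9.28 and 9.59 in WT on its brighter probe set. N1IC replicate 1 lay above the lowest WT array. The log2 fold change was -0.45 with a 95% interval from -0.90 to 0.01 and an adjusted p of 0.199 by limma. The dimmer probe set had a log2 fold change of -0.22 and did not pass either.

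**Figure D2:**
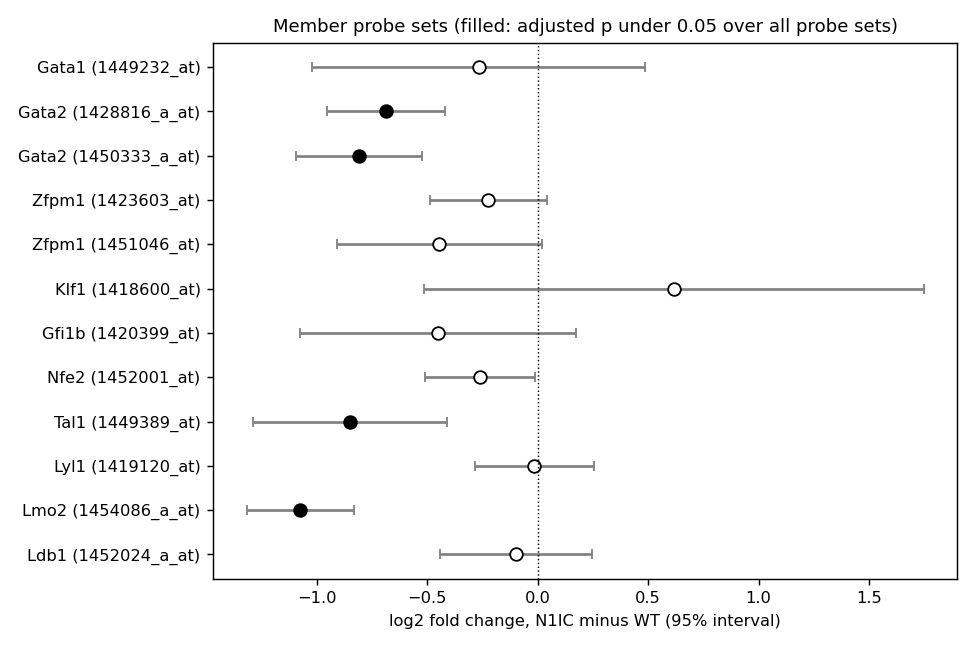
Log2 fold change (N1IC minus WT, horizontal axis) of the 12 probe sets with 95% intervals from limma over all probe sets; filled points passed an adjusted p of 0.05. Both Gata2 probe sets, Tal1 and Lmo2 passed below 0, and the intervals of Klf1 and Gata1 are the widest of the 12.

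The remaining factors of red cells and platelets did not pass the test. Nfe2, the p45 subunit of the factor NF-E2 that pairs with small MAF proteins, stood at 12.13, 11.89 and 12.01 in N1IC, against 12.21, 12.22 and 12.39 in WT. The groups did not overlap, but the gap was small. The log2 fold change was -0.26 ± 0.10 (SE, n = 3; adjusted p = 0.155 by limma). Gfi1b, a zinc finger repressor that recruits LSD1, stood at 10.51, 9.91 and 9.76 in N1IC, against 10.33, 10.90 and 10.30 in WT, with overlapping groups. Its log2 fold change was -0.45 with a 95% interval from -1.07 to 0.17 (adjusted p = 0.328 by limma).

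Klf1, the Kruppel-like activator of globin and other red cell genes, was the only one of the 10 with a mean higher in N1IC. It stood at 11.20, 10.64 and 9.96 in N1IC, against 9.28, 10.77 and 9.90 in WT, and arrays of each group were spread over more than the difference between the groups. Its log2 fold change was 0.62 with a 95% interval from -0.51 to 1.74 (adjusted p = 0.463 by limma), and in the fits that add sex or keep only females it was -0.17. The SD of Klf1 within groups was 0.69, above that of 96.6% of all genes, and that of Gata1 was 0.45, above that of 91.2%. In contrast, Lmo2 and Nfe2 had an SD within groups of 0.10 and 0.11. N1IC replicate 1 had the highest N1IC value for 9 of the 10 genes, the exception being Lyl1, and for 25.9% of all genes.

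Several erythroid genes had an order of arrays like that of Klf1. The 30 measured erythroid genes were chosen from textbook knowledge as targets of GATA1 and KLF1. WT replicate 1 was the lowest WT array for 23 of them, beside 36.7% of all genes. N1IC replicate 1 was the highest N1IC array for 19, beside 25.9% of all genes. Other lists shared parts of this order. WT replicate 1 was also lowest for 8 of 10 T cell, 5 of 6 B cell and 9 of 13 mast cell and basophil markers, but for 3 of 23 stem cell genes. N1IC replicate 1 was highest for 8 of 13 mast cell and basophil, 2 of 10 T cell and 1 of 6 B cell markers. Ermap, a red cell membrane protein named after its values were seen, stood at 11.59, 10.72 and 10.35 in N1IC, against 9.55, 11.01 and 10.08 in WT. Kel, the Kell blood group protein also named after its values were seen, stood at 8.66, 7.62 and 7.35 in N1IC, against 5.89, 7.76 and 7.39 in WT. Both had their highest value on N1IC replicate 1 and their lowest on WT replicate 1, as Klf1 had. Slc4a1, the anion exchanger of mature red cells, had another order, with 8.15, 8.29 and 7.68 in N1IC, against 7.98, 10.49 and 9.87 in WT. Of the 3 measured markers of mature red cells, which include Slc4a1, 0 passed in either direction by limma and 0 did so at an unadjusted p of 0.05. Their summed intensity ran from 271 to 367 in N1IC and from 302 to 1552 in WT, and no marker was listed at 0.

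**Figure D3:**
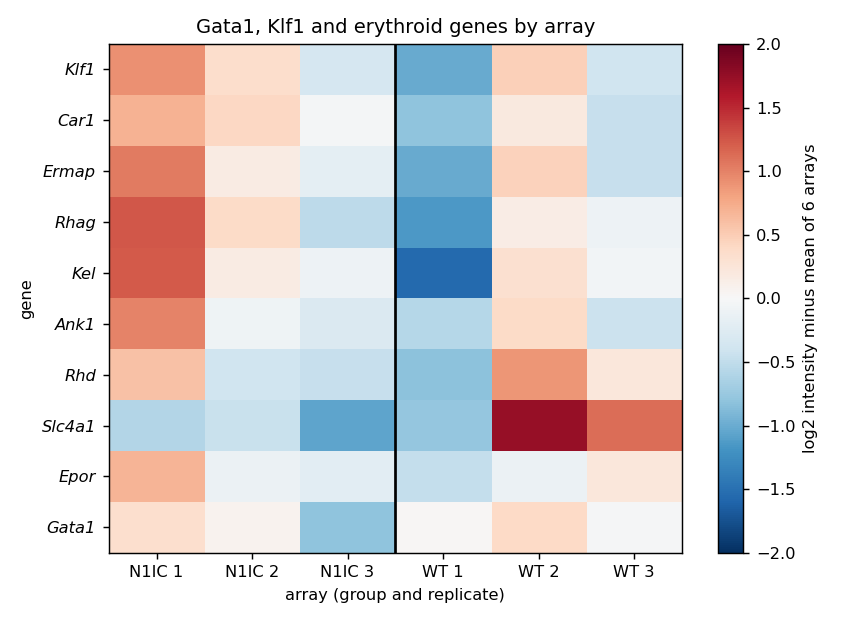
Log2 intensity minus the mean of the 6 arrays (colour scale) for Klf1, Gata1 and 8 erythroid genes picked after their values were seen, by array (columns, N1IC left of WT). Klf1, Car1, Ermap, Rhag and Kel are highest on N1IC replicate 1 and lowest on WT replicate 1, while Slc4a1 is high on WT replicates 2 and 3.

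Of the 30 erythroid genes, 2 fell, 1 rose and 27 did not pass. These are 6.67% lower and 3.33% higher, beside 8.31% and 3.47% of all genes, with a median log2 fold change of 0.03 beside -0.01 over all genes. Those that passed were Car2, a carbonic anhydrase, lower by 0.53 on the log2 scale, Icam4, an adhesion protein of red cells, lower by 0.82, and Slc25a37, the mitochondrial iron importer mitoferrin 1, higher at 0.59, with adjusted p between 0.0375 and 0.0450 by limma. Without WT replicate 2, WT replicate 3, N1IC replicate 2 or N1IC replicate 3 the count lower was 0, without N1IC replicate 1 it was 1 and without WT replicate 1 it was 3, and the count higher was 0 without any single array other than N1IC replicate 2. None of these 3 genes passed when tested over all probe sets. Of 22 measured megakaryocyte genes, 15 fell, 0 rose and 7 did not pass, with a median of -1.53. The share lower was 68.2%, beside 8.31% of all genes. At an unadjusted p of 0.05 by limma, 0 of them were higher. Mmrn1, which encodes the platelet protein multimerin, was 9.89-fold lower, at 6.56 ± 0.22 in N1IC against 9.87 ± 0.38 in WT (SD, n = 3). Gng11, a G protein gamma subunit abundant in platelets, was 8.46-fold lower, Tbxas1, thromboxane synthase, 2.44-fold, and Plek, the platelet protein pleckstrin, 2.49-fold. The platelet chemokine genes Pf4 and Ppbp were 33.4-fold and 5.46-fold lower. Itga2b, the integrin that marks the lineage, named after its values were seen, had a log2 fold change of -0.40 and did not pass. Nfe2 and Gfi1b, factors of this lineage, had log2 fold changes nearer 0 than the median of this list, as had all 10 genes.

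Of 23 measured stem cell genes, several of them known to be bound by SCL or GATA2, 11 fell, 0 rose and 12 did not pass, with a median of -0.91. The share lower was 47.8%, beside 8.31% of all genes. At an unadjusted p of 0.05 by limma, 1 of them was higher. Tek, the angiopoietin receptor, was 4.39-fold lower, at 8.07 ± 0.40 in N1IC against 10.20 ± 0.26 in WT (SD, n = 3). The transcription factor genes Hlf and Mecom were 8.51-fold and 7.02-fold lower. Meis1, a Hox cofactor, was 3.70-fold lower and Robo4, a receptor of endothelium and stem cells, 8.53-fold lower. Egfl7, a secreted protein of endothelium and stem cells, was 3.12-fold lower and Eng, the TGF-beta coreceptor endoglin, named after its values were seen, 2.00-fold lower. Runx1 and Fli1, which share many binding sites with the SCL complex, had log2 fold changes of 0.29 and 0.05 on their brightest probe sets and did not pass. The N1IC arrays lay wholly above the WT arrays for Runx1, and all 6 of its probe sets had the same direction, 2 of them called higher over all probe sets. That many megakaryocyte and stem cell genes are lower was already known from these data when the lists were made, so these counts are no independent evidence.

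**Figure D4:**
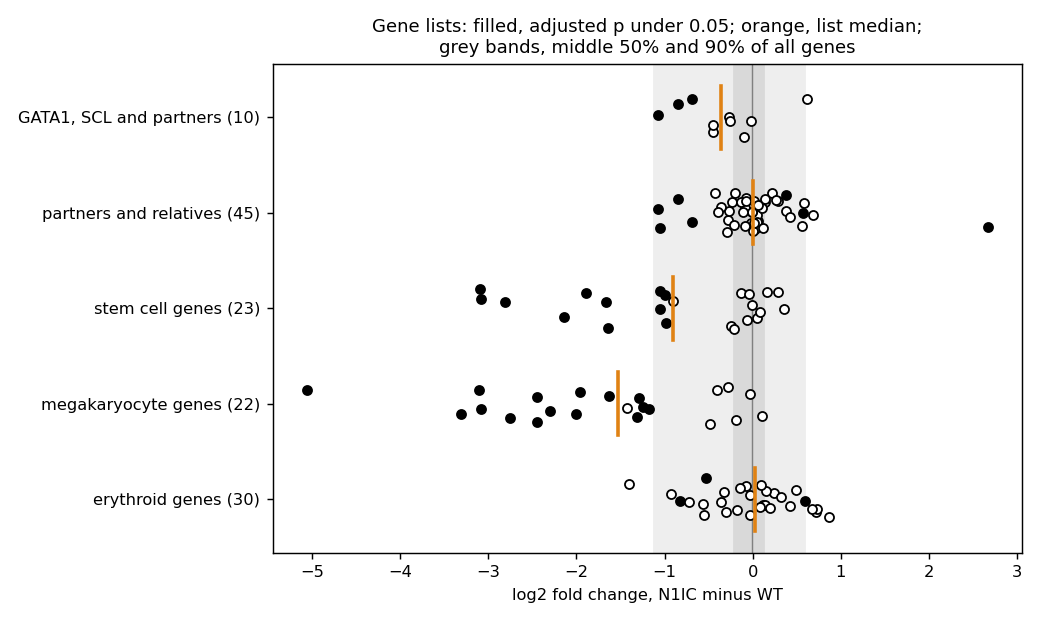
Log2 fold change (N1IC minus WT, horizontal axis) of single genes in 5 lists, with the number measured in brackets; filled points passed an adjusted p of 0.05, orange bars are list medians, and grey bands hold the middle 50% and 90% of all genes. The medians are -0.36 for GATA1, SCL and partners, 0.01 for partners and relatives, -0.91 for stem cell genes, -1.53 for megakaryocyte genes and 0.03 for erythroid genes.

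Among 45 measured partners and relatives of the 10 factors, 4 fell, 3 rose and 38 did not pass, with a median log2 fold change of 0.01. The shares of 8.89% lower and 6.67% higher stand beside 8.31% and 3.47% of all genes. Ssbp2 and Ssbp3 encode single-stranded DNA binding proteins that bind LDB1 and protect it from degradation. Ssbp2 stood at 11.21, 11.32 and 11.29 in N1IC, against 11.98, 11.96 and 11.94 in WT, 1.61-fold lower (adjusted p = 0.00394 by limma), with the same direction on all 4 of its probe sets. Ssbp3 stood at 12.45, 12.41 and 12.31 in N1IC, against 11.96, 11.74 and 11.76 in WT, 1.48-fold higher (adjusted p = 0.0156 by limma), on both of its probe sets. The arrays of the groups did not overlap for either gene, and the log2 fold change of Ssbp3 minus that of Ssbp2 was 1.25 ± 0.09 (SE, n = 3; exact permutation p = 0.1).

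Erg, an ETS factor that binds with SCL, LMO2 and GATA2 in stem cells, was 2.08-fold lower, at 9.67 ± 0.28 in N1IC against 10.73 ± 0.23 in WT (SD, n = 3, adjusted p = 0.0185 by limma). Id1 and Id3, which sequester the E proteins that TAL1 and LYL1 pair with, were 2.10-fold and 1.79-fold lower, with adjusted p of 0.0295 and 0.0304 by limma. Their relative Id2 had a log2 fold change of 0.02 on its brightest probe set and did not pass. The E proteins Tcf3, Tcf12 and Tcf4, named after their values were seen, had log2 fold changes of 0.14, 0.37 and -0.28 on their brightest probe sets and did not pass. For Tcf12 the N1IC arrays lay wholly above the WT arrays, and all 5 probe sets had the same direction, 2 of them called higher over all probe sets. Chd4, the helicase of the NuRD complex that FOG1 recruits, had a log2 fold change of 0.37 on its brightest probe set (adjusted p = 0.0407 by limma), but none of its 3 probe sets passed when tested over all probe sets. Kdm1a, which encodes LSD1, and Cbfa2t3, which encodes the corepressor ETO2 of the SCL complex, had log2 fold changes of -0.01 and -0.22 on their brightest probe sets and did not pass. Of the 4 probe sets of Cbfa2t3, 3 were below 0 and 2 of these were called lower over all probe sets. The plot of partners by array shows these values.

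**Figure D5:**
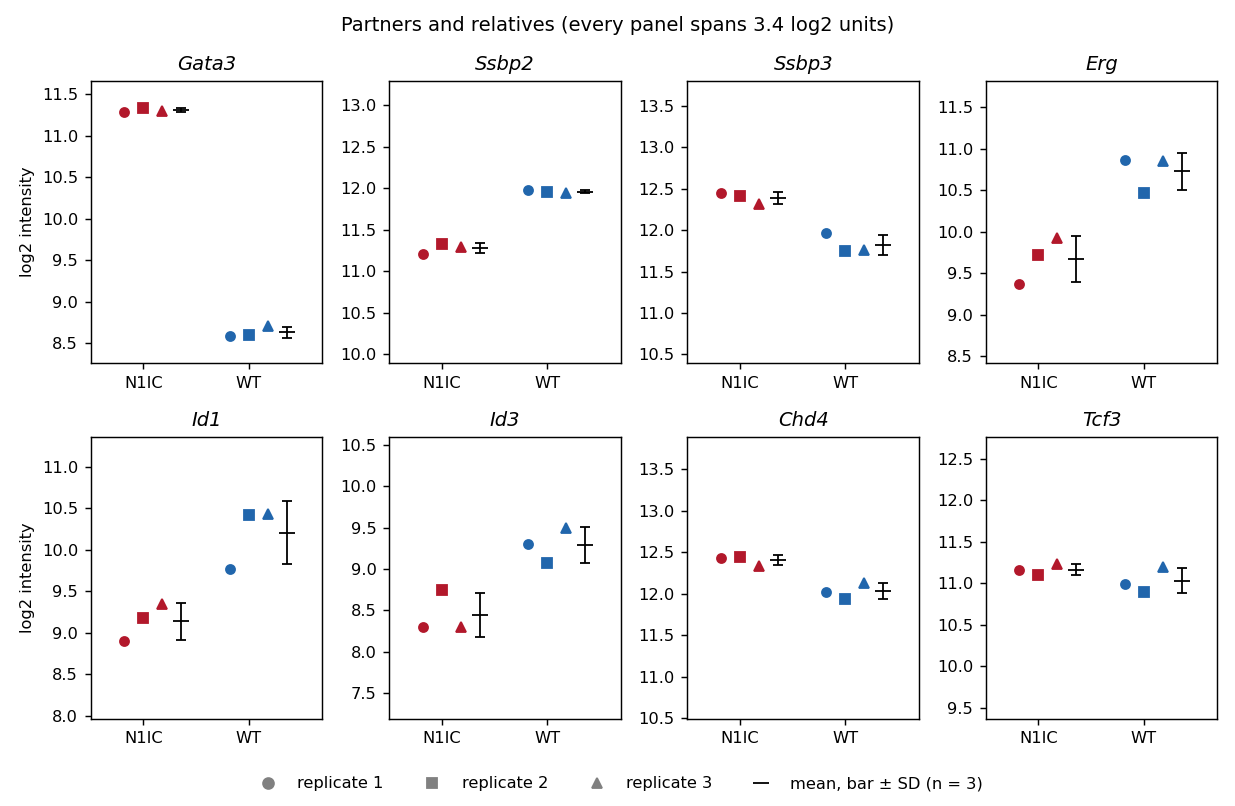
Log2 intensity (vertical axis) of 8 partners and relatives on the 3 N1IC and 3 WT arrays, 1 point per array, with the mean and SD (n = 3); every panel spans the same height. Gata3, Ssbp3 and Chd4 lie higher and Ssbp2, Erg, Id1 and Id3 lower in N1IC without overlap, and Tcf3 did not pass the test.

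Mast cells also use GATA2 and GATA1. Of 13 measured mast cell and basophil markers, 3 rose and 0 fell, beside 3.47% higher and 8.31% lower over all genes. Their summed intensity ran from 29891 to 35915 in N1IC and from 17296 to 22759 in WT. Without Gzmb it ran from 23765 to 29022 in N1IC and from 17167 to 22361 in WT. These sums include Srgn, the brightest of the 13 in both groups, at a mean of 13.58 in N1IC and 13.57 in WT. Both Gata2 probe sets were lower in N1IC. Cpa3, a mast cell carboxypeptidase, stood at 12.61, 12.50 and 12.41 in N1IC, against 10.14, 10.89 and 10.56 in WT. The others that rose were Mcpt1, a mast cell protease, and Gzmb, a granzyme that lymphocytes also make, with log2 fold changes of 7.57 and 4.85. Of the 10 that did not pass, 4 had log2 fold changes below 0: Hdc, histidine decarboxylase, at -1.23, Ms4a2, a chain of the IgE receptor, at -1.02, Mitf, a transcription factor of mast cells, at -0.92 and Mcpt8, a basophil protease, at -0.56. The rest lay above 0: Mcpt4 at 3.84, Cma1 at 2.13, Tpsb2 at 1.53, Fcer1a at 0.55, Tpsab1 at 0.20 and Srgn at 0.01. Among these uncalled markers, the groups did not overlap for Mcpt4, Ms4a2 and Mitf.

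The genes whose pattern over the 6 arrays was most like that of the called members are given as a description, since with groups this far apart many genes correlate. Over 3488 genes that ranged by at least 1 on the log2 scale, Pearson's r with Lmo2 was highest for Vsig10, Epb41l1 and Armcx6, at least 0.998. With Gata2 it was highest for Cryzl2, Dach1 and Tek, between 0.996 and 0.997, and with Tal1 for Prkg1, Ctso and Asah2, between 0.989 and 0.997. All 9 of these genes were themselves lower in N1IC.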

How the data were processed

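RNA of sorted LSK cells in 3 N1IC and 3 WT samples was hybridised to 1 array each, after amplification with the Nugen Ovation system per the labels' protocols. The deposited values are linear intensities per probe set, for which the authors used RMA, per the submitters' processing notes. The sources used here give no version or settings. Their range showed the linear scale, and log2 was computed here. Detection calls were not used here.

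Of 45101 probe sets, 64 were controls, 34945 had 1 gene symbol, 932 several and 9160 none in the platform's annotation, and symbols were updated by gene ID through RefSeq (34741 matched). For each of 18193 genes the brightest probe set by its mean on the 6 arrays stood for the gene. The groups were tested with limma 3.58.1 in R 4.3.3 (lmFit, eBayes, no covariate, two-sided), with Benjamini-Hochberg adjustment over all genes at 0.05, and again over all 45037 probe sets. The intervals are at 95% from the moderated t. Files were read with data.table version 1.17.8 and plots drawn with matplotlib 3.10.9 in Python 3.11.15. The test was checked on simulated data.

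The 10 genes and all lists were chosen with earlier results of these data known. Named were all 10 genes, from each list up to 6 called genes by smallest p or else the 3 brightest (given for the lists the text turns on, as examples), and for the 3 members with the smallest p the 3 genes with the highest Pearson's r. Genes named outside this rule, among them every uncalled gene that is not one of the 10, were chosen after their values were seen. A few listed genes were not analysed here. The alternatives were a replicate block, a sex term, females alone, repeated quantile normalization, median centring, the brighter 60% of genes, an intensity trend or robust prior, array weights, averaging a gene's probe sets, thresholds of 0.01 and 0.1, and leaving out each array.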

Additional observations from a re-analysis of the deposited data

How the results depend on the processing

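With 1 probe set per gene, Lmo2 kept its direction and its call in all 16 refits. Adjusted over all probe sets, Lmo2 lost its call in 2 of 17, those that add sex or keep females alone (adjusted p = 0.0609 and 0.0599 by limma), the brighter Gata2 probe set in 7, the dimmer in 4 and Tal1 in 10. With 1 probe set per gene, Gata2 kept its direction in all 16 and lost its call in 2, and Tal1 kept its direction in all 16 and lost its call in 8, namely the fits with a replicate block, sex as a covariate, female mice only, and those without WT replicate 1, 2 or 3 or N1IC replicate 2 or 3 (adjusted p between 0.0600 and 0.302 by limma). The 17 fits over all probe sets include the thresholds of 0.01 and 0.1, which the 16 leave out, and only the 16 include averaging a gene's probe sets. At 0.01, Gata2 and Tal1 lost their calls with 1 probe set per gene too. None of the 10 genes was called higher in any fit. Correlations of same-numbered arrays' deviations were -0.09, -0.07 and 0.07. Of the 6 arrays only N1IC replicate 3 correlated best with the array of its own number in the other group. With 3 arrays per group these values cannot decide whether replicate numbers pair the samples. In the fit with the replicate block, 357 of all genes were higher and 936 lower, 1 of the 12 probe sets was lower, as were 2 partners and 1 erythroid gene, and 0 erythroid genes were higher.

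With sex as a covariate, 116 of all genes were higher and 333 lower, 1 of the 10 genes (Lmo2) and 0 of the 12 probe sets (Lmo2 included) were lower, and the lists gave 1 partner higher and 0 lower, 0 erythroid genes in either direction, and 9 megakaryocyte and 5 stem cell genes lower. With female mice only, these counts were 142 and 504 for all genes, 1 and 0 for the genes and probe sets, 1 and 0 for partners, 0 higher for erythroid genes, 6 for megakaryocyte and 4 for stem cell genes. Both fits rest on WT replicate 2 as the only WT female, and the cause of the lost calls was not tested. In them Klf1 turned to -0.17 and Lyl1 to 0.068. Leaving out each array in turn gave -0.50 to 0.068 for Gata1 and -0.084 to 0.056 for Lyl1 on the log2 scale, 332 to 509 of all genes higher and 835 to 1420 lower, 2 to 4 of the 12 probe sets lower, 1 to 3 partners higher and 1 to 3 lower, and 0 to 1 erythroid genes higher and 0 to 3 lower. At a threshold of 0.01, 209 of all genes were higher and 536 lower, and 1 of the 10 genes, 1 of the 12 probe sets, 1 partner and 7 stem cell genes were lower, 1 partner was higher, and 0 erythroid genes were called. At 0.1, 1038 of all genes and 5 partners were higher. Repeated quantile normalization left 1 erythroid gene lower, and an intensity trend or the mean of all probe sets each gave 5 partners and 1 stem cell gene higher.

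With 3 arrays per group, changes smaller than the intervals given cannot be seen, and RMA without detection calls gives no level as absent. Sex and genotype overlap in this design and cannot be told apart beyond WT replicate 2.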
